A study of Mus musculus with 4 samples.

Results

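The 9 genes of the cohesin core were taken by gene symbol from the deposited table: Smc1a, Smc1b and Smc3, which encode the coiled-coil arms, Rad21, Rec8 and Rad21l, which encode the kleisin that closes the ring, and Stag1, Stag2 and Stag3, which encode the subunit that binds the kleisin. All 9 symbols were found among the 23420 gene symbols of the table, and 7 of the 9 passed the expression filter that left 10316 genes for testing. Smc1b, Rec8, Rad21l and Stag3 are the 4 meiosis-specific members, and the other 5 are the general members used in dividing somatic cells. Smc1a and Stag2 lie on the X chromosome and the other 7 on autosomes.

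Cohesin is a ring of an SMC1 arm, an SMC3 arm and a kleisin, to which a STAG protein is bound, and it holds sister chromatids together and shapes chromatin loops. Germ cells in meiosis replace several of the general subunits with meiosis-specific paralogs, which build the chromosome axis on which homologs synapse and which let cohesion be released in steps. In pachytene spermatocytes the X and Y chromosomes do not synapse along their length and are transcriptionally silenced in the sex body, a process called meiotic sex chromosome inactivation, which depends on signalling by the kinase ATR.

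RNA was measured in 4 libraries of pachytene spermatocytes sorted by FACS from testes of wild-type (WT) C57BL/6 mice of 23 weeks and then cultured for 24 h in 5% CO2. The medium of 2 libraries held DMSO (Ctrl), and that of the other 2 held 10 µM AZ20, an inhibitor of ATR. Each library was made from 15000 cells counted after the culture, and, per the study's methods, each experiment divided the testicular cells of 1 mouse between treatment and control. The comparison addresses which transcripts depend on ATR activity in cells that have already entered pachytene. Values are TPM, a transcript abundance scaled to transcript length and to a common library total, so that levels of different genes can be set side by side. Per the study's methods the libraries were made with a kit for low input. Whether it captured the transcripts of different genes equally well was not tested, and ratios between genes carry that limit. The recovered reads on genes numbered from 14506923 to 20906765 per library, as described with the processing, and a gene with 0 reads was given the limit that 3 reads allow.

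All 10 markers of pachytene spermatocytes were above 1 TPM in every library, with a summed level of 11100 to 11400 TPM. The Sertoli cell markers summed to 1.53 to 2.23 TPM, with Sox9 and Wt1 at 0 throughout, the Leydig cell markers to 0.866 to 2.31 TPM, the macrophage markers to 0.76 to 1.54 TPM and the peritubular myoid cell markers to 2.18 to 4.6 TPM. The spermatogonial markers summed to 8.26 to 21.2 TPM, mostly Uchl1, and Stra8, Dmrt1 and Sohlh1 were at 0 throughout. The 8 markers of round spermatids summed to 370 and 151 TPM in Ctrl and to 782 and 254 TPM in AZ20, highest in replicate 1 of each group. Among the markers that passed the filter, 10 of pachytene spermatocytes, 8 of round spermatids, 2 of spermatogonia and 1 each of Sertoli, Leydig and peritubular myoid cells, 0 were called. The other markers, all 6 of macrophages among them, were not tested.

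Expression of the cohesin genes was dominated by Smc1b. The 9 genes together had 308 and 284 TPM in Ctrl and 275 and 326 TPM in AZ20, and Smc1b supplied 78% of the sum in each Ctrl library and 73% and 73.2% in the AZ20 libraries. In Ctrl the order of mean levels was Smc1b, Stag3, Stag1, Rad21, Smc3, Rec8, Rad21l, Stag2 and Smc1a. The ranges of the 2 libraries overlapped only between Rec8 and Rad21l and between Stag2 and Smc1a among neighbours in this order. In AZ20 Smc1a moved up to the fourth place, between Stag1 and Smc3, and Stag2 to the seventh, and the neighbours with overlapping ranges were Smc3 with Rad21 and Stag2 with Rad21l.

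**Figure D1:**
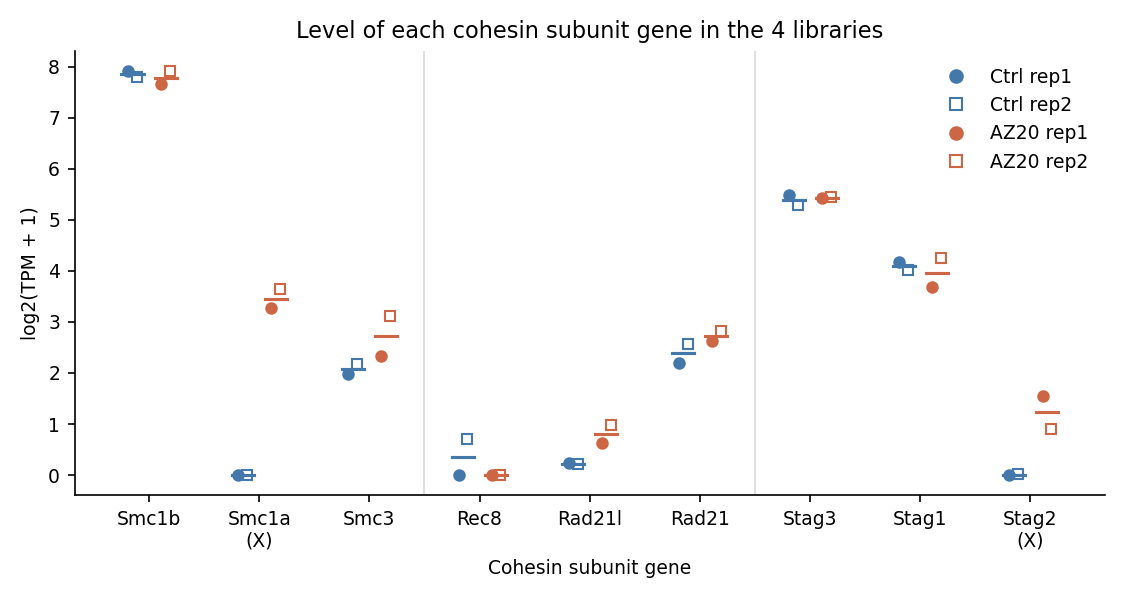
Level of the 9 cohesin subunit genes, grouped as SMC, kleisin and STAG subunits, on a log2(TPM + 1) axis, with a point for each library (n = 2 per group) and a bar for the group mean. Smc1b is the highest in all 4 libraries, Smc1a is at 0 in both Ctrl libraries and at 8.64 and 11.5 TPM in the AZ20 libraries, and Stag3 lies between 38.2 and 43.8 TPM throughout.

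Of the 7 members tested, only Smc1a was called, with a higher level in AZ20, and none was called lower. A call required a change of at least 2-fold on the log2(TPM + 1) scale and an adjusted p under 0.05 in limma. For comparison, 2.28% of all genes tested, 63.3% of the 341 X-linked genes tested and 0.151% of the 9926 autosomal genes tested (the last in either direction) were called by the same rule. So the X-linked members gave 1 call of 2 and the autosomal members tested 0 of 5, and 2 of the 7, both of them X-linked, had an unadjusted p under 0.05 in limma, as did 945 of the 10316 genes tested, 303 of the 341 X-linked genes and 630 of the 9926 autosomal genes. Having 2 of 2 X-linked members under it is thus near the share of X-linked genes as a whole. Smc1a and Stag2 passed the filter only through the AZ20 libraries, so their groups had to differ. The same filter applied to the X-linked genes set beside them, so the counts of the X-linked members are description only. The median change of the 7 was 0.34, beside 0.072 over all genes tested, but the 7 include the 2 X-linked members. The 5 autosomal members tested ranged from -0.13 (Stag1) to 0.64 (Smc3), on either side of the autosomal median of 0.059. In bulk RNA a change in the number of cells that express a gene and a change in RNA per cell cannot be told apart.

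Smc1b encodes the meiosis-specific SMC1 arm and lies at chr15:85064689-85131964 on the minus strand (GRCm38). Its level was 240 and 222 TPM in Ctrl and 201 and 239 TPM in AZ20, above 92% of all genes tested in Ctrl. These levels rested on 9787, 10330, 11811 and 12671 reads. The groups overlapped, with AZ20 replicate 1 the lowest library. The mean was 231 ± 13 TPM in Ctrl and 220 ± 26.8 TPM in AZ20 (SD, n = 2 each), a change of -0.073 ± 0.17 (SE) on the log2(TPM + 1) scale with a 95% interval of -0.47 to 0.32 (limma, adjusted p = 0.949).

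Smc1a, at chrX:152016428-152062694 on the plus strand, encodes the SMC1 arm of general cohesin. No read was found in either Ctrl library, which allows a level of up to 0.0749 TPM in replicate 1 and 0.0655 TPM in replicate 2, whereas the AZ20 libraries held 499 and 598 reads, or 8.64 and 11.5 TPM. Both AZ20 libraries were thus above both Ctrl libraries. The AZ20 mean of 10.1 ± 2.0 TPM (SD, n = 2) was at least 143-fold higher than the level that 3 reads per Ctrl library allow. On the log2(TPM + 1) scale, which understates the change of a gene this low, the difference was 3.46 ± 0.30 (SE), with a 95% interval of 2.75 to 4.16 (limma, adjusted p = 0.000822), with 3.27 between the libraries numbered 1 and 3.64 between those numbered 2. Since the gene passed the filter only through the AZ20 libraries, its groups had to differ. Leaving out AZ20 replicate 1 or AZ20 replicate 2 raised the adjusted p in limma to 0.0902 and 0.0791, and in these fits no gene at all was called among those tested.

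Smc3 encodes the SMC3 arm, for which there is no meiosis-specific paralog, and lies at chr19:53600398-53645833 on the plus strand. It had 2.94 and 3.54 TPM in Ctrl and 4.03 and 7.67 TPM in AZ20, with both AZ20 libraries above both Ctrl libraries. The mean was 3.24 ± 0.422 TPM in Ctrl and 5.85 ± 2.57 TPM in AZ20 (SD, n = 2 each). The change of 0.64 ± 0.33 (SE) on the log2(TPM + 1) scale, with a 95% interval of -0.15 to 1.43, did not pass the test (limma, adjusted p = 0.677), and most of the rise in the mean came from AZ20 replicate 2. At the transcript level 3.03% of Smc3 (147 of 4851 bases) is matched by processed pseudogenes, against 0% for the other 8 members. The study kept unique alignments only, so a small part of the Smc3 reads may have been lost. Smc3 transcripts were far scarcer than those of the SMC1 arm: Smc1b was 81.6-fold and 62.6-fold above Smc3 in Ctrl and 49.9-fold and 31.2-fold above it in AZ20.

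Among the kleisins, Rad21 of general cohesin was the most abundant in every library, and both meiosis-specific kleisins were near the limit of detection. Rad21 (chr15:51962240-51991747, minus strand) had 3.6 and 4.91 TPM in Ctrl and 5.15 and 6.07 TPM in AZ20, so that both AZ20 libraries lay above both Ctrl libraries. The change of 0.34 ± 0.27 (SE) on the log2(TPM + 1) scale did not pass the test, with a 95% interval of -0.30 to 0.98 (limma, adjusted p = 0.814).

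Rec8 (chr14:55618037-55625395, plus strand) encodes the kleisin of meiotic cohesion that separase cleaves. Its transcript was at 0 in Ctrl replicate 1 and in both AZ20 libraries and at 0.633 TPM, from 16 reads, in Ctrl replicate 2. The libraries with 0 reads allow levels of up to 0.136 TPM in Ctrl replicate 1, 0.0941 TPM in AZ20 replicate 1 and 0.104 TPM in AZ20 replicate 2. The 2 Ctrl libraries therefore differed from each other, the groups overlapped, and no fold change is given.

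Rad21l (chr2:151645404-151668533, minus strand) encodes the other meiosis-specific kleisin. It had 0.179 and 0.157 TPM in Ctrl, from 3 reads each, and 0.539 and 0.965 TPM in AZ20, from 13 and 21 reads. Both AZ20 libraries were above both Ctrl libraries. Scaled by the TPM worth of a read in each group, the 34 reads in AZ20 against 6 in Ctrl gave a ratio of 4.42. Its 95% exact interval of 1.84 to 12.9 covers counting error only and not the spread between cultures. Rec8 and Rad21l were both under the filter of a mean above 1 TPM in either group and were not tested. The length behind the TPM of Rad21l was 1659 bases, against 3605 for Rad21, and its annotated start may be that of the coding sequence. Reads outside the annotated exons were not counted, so the level of Rad21l and its ratios and shares are less certain.

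Stag3 (chr5:138280240-138312393, plus strand) encodes the meiosis-specific STAG subunit, and at 43.8 and 38.2 TPM in Ctrl and 42.2 and 42.3 TPM in AZ20 it was the second most abundant of the cohesin transcripts. It stood above 75.5% of all genes tested in Ctrl. The AZ20 values fell between the Ctrl values, and the change of 0.045 ± 0.19 (SE), with a 95% interval of -0.41 to 0.50, did not pass the test (limma, adjusted p = 0.975). Under quantile normalization its sign turned, to -0.076, as it did without Ctrl replicate 2, to -0.051.

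Stag1 (chr9:100597798-100959375, plus strand), a general STAG subunit, had 17.1 and 15.1 TPM in Ctrl and 11.8 and 18.1 TPM in AZ20. The AZ20 libraries enclosed the Ctrl libraries, and the change was -0.13 ± 0.26 (SE) with a 95% interval of -0.75 to 0.50 (limma, adjusted p = 0.94). Without AZ20 replicate 1 the sign was positive, at 0.16, and the same omission gave Smc1b a change of 0.051.

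Stag2, the other general STAG subunit, lies at chrX:42149317-42277185 on the plus strand. It had 0 and 0.0142 TPM in Ctrl, the latter from 1 read, and 1.94 and 0.876 TPM in AZ20, from 172 and 70 reads. Both AZ20 libraries were above both Ctrl libraries, and replicate 1 was the higher of them, whereas for Smc1a it was the lower. Scaled by the TPM worth of a read in each group, 242 reads in AZ20 against 1 in Ctrl gave a ratio of 189 with a 95% exact counting interval of 33.6 to 7490. On the log2(TPM + 1) scale the difference was only 1.22 ± 0.38 (SE), with a 95% interval of 0.33 to 2.12, and was not called (limma, adjusted p = 0.328). Stag2 too passed the filter through the AZ20 libraries alone. With the replicate number as a block the adjusted p in limma was 0.0857. A voom fit of the recovered reads gave an adjusted p of 0.0724, and with the replicate block it called Stag2, with a log2 change of 6.56 and an adjusted p of 0.0102 (limma). In that fit 74.8% of the X-linked genes were called higher.

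**Figure D2:**
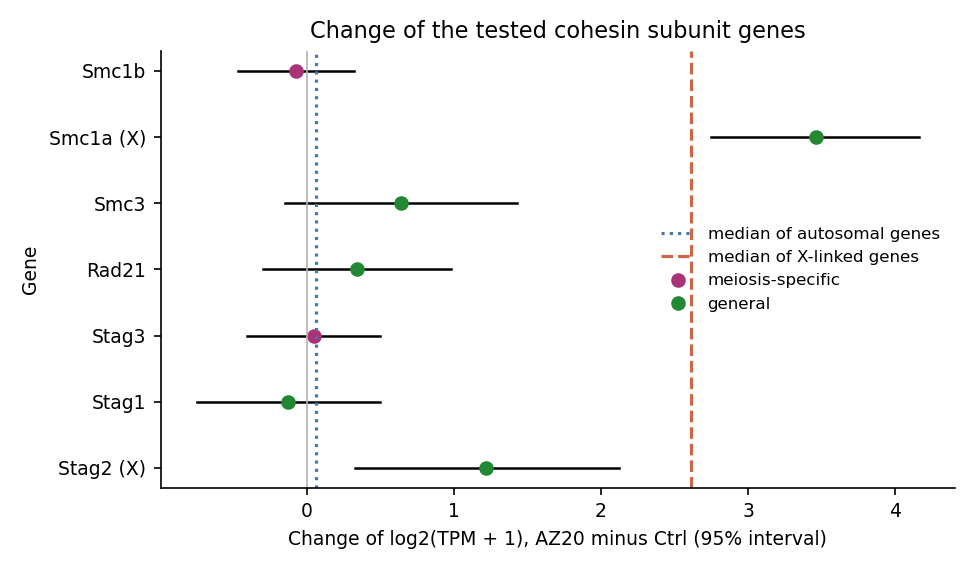
Change of log2(TPM + 1), AZ20 minus Ctrl, with its 95% interval from limma for the 7 members tested, beside dotted and dashed lines at the median of the autosomal genes (0.059) and of the X-linked genes (2.61). Smc1a, at 3.46, lies to the right of the X-linked median, Stag2, at 1.22, to the left of it, and the intervals of the other 5 members include 0.

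Both AZ20 libraries were above both Ctrl libraries for 4 of the 7 members tested, namely Smc1a, Smc3, Rad21 and Stag2, and below them for 0. Over all genes tested 26.4% had both AZ20 libraries above both Ctrl libraries. Of the 5 autosomal members tested 2 did so, beside 24.1% of the autosomal genes tested. For Smc1a and Stag2 the filter itself required the groups to differ, so only Smc3 and Rad21 bear on this count. Rad21l, which was under the filter, also had both AZ20 libraries above both Ctrl libraries, and no split between general and meiosis-specific members can be read from these counts.

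The paralogs that fill the same position in the ring were set against each other within each library. Smc1b was at least 3210-fold and 3380-fold above Smc1a in the Ctrl libraries, computed against 3 reads, and 23.3-fold and 20.8-fold above it in the AZ20 libraries. With a pseudocount of 0.01 TPM the log2 ratio fell by 10.04 from Ctrl to AZ20, with both pairs in the same direction. Since Smc1a had 0 reads in Ctrl, the size of this fall is set by the pseudocount. The change was -6.73 with a pseudocount of 0.1 TPM and -3.53 with 1 TPM. Stag3 was at least 897-fold above Stag2 in Ctrl replicate 1, 2680-fold above it in Ctrl replicate 2 (95% exact counting interval 481 to 106000, from 1 read of Stag2), and 21.7-fold and 48.3-fold above it in AZ20. In each of these pairs the AZ20 libraries had the smaller excess of the meiosis-specific gene, and its own level overlapped between the groups.

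The ratio of Stag3 to Stag1, both autosomal, was 2.56 and 2.53 in Ctrl and 3.57 and 2.34 in AZ20. The AZ20 libraries lay on either side of the Ctrl libraries, and the change of 0.18 in log2 ratio turned to -0.12 without AZ20 replicate 1 (exact permutation p = 1). For the kleisins the general gene was the higher. Rad21 was 20.1-fold (6.73 to 98.7) and 31.3-fold (10.6 to 153) above Rad21l in Ctrl and 9.56-fold (5.5 to 18.2) and 6.29-fold (4.04 to 10.3) above it in AZ20, with 95% exact counting intervals. Against Rec8, Rad21 was 7.75-fold higher in Ctrl replicate 2 and at least 26.6-fold, 54.7-fold and 58.2-fold higher in Ctrl replicate 1, AZ20 replicate 1 and AZ20 replicate 2. With 2 libraries against 2, the two-sided exact permutation test cannot give a p below 0.333, which it gave for the 4 pairs other than Stag3 and Stag1 (0.417 after adjustment over the 5 pairs).

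**Figure D3:**
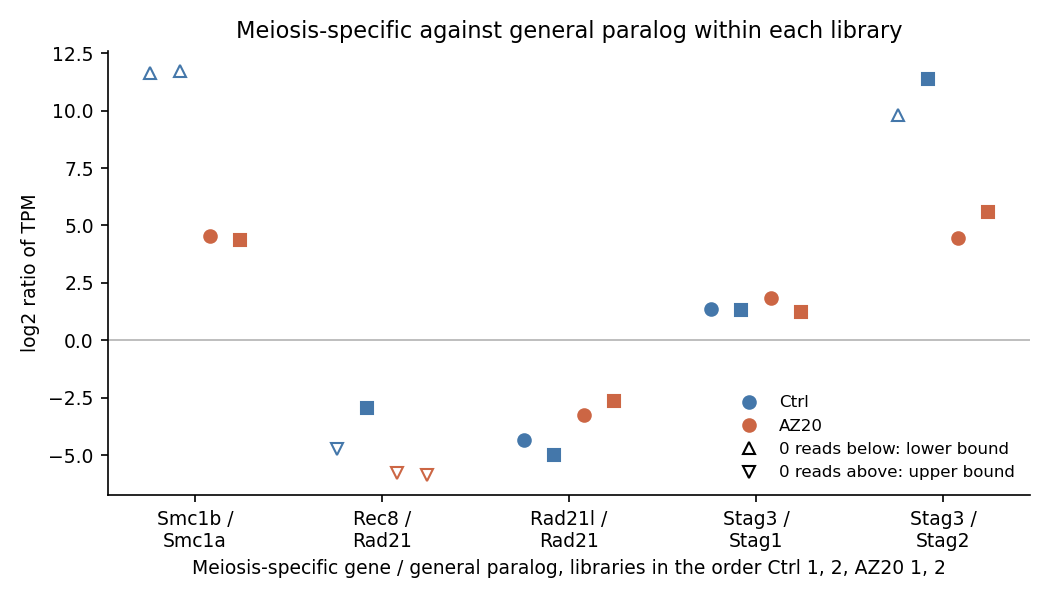
Log2 ratio of the TPM of a meiosis-specific cohesin gene to that of its general paralog in each library, Ctrl in blue and AZ20 in orange, with circles for replicate 1, squares for replicate 2 and open triangles for bounds where 1 gene of the pair had 0 reads. Smc1b over Smc1a and Stag3 over Stag2 are lower in AZ20 than in Ctrl, while Stag3 over Stag1 lies near the same value in all 4 libraries and both kleisin ratios are below 0.

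As shares of a position, Smc1b made up 100% of SMC1 transcripts in both Ctrl libraries, where the 0 reads of Smc1a allow it a share of up to 0.0312% and 0.0295%, and 95.9% and 95.4% in AZ20. Stag3 made up 71.9% and 71.6% of STAG transcripts in Ctrl and 75.4% and 69.1% in AZ20. The share of Stag2 was 0% and 0.0267% in Ctrl and 3.47% and 1.43% in AZ20. Stag1 supplied the rest, 28.1% and 28.3% in Ctrl and 21.1% and 29.5% in AZ20. Rec8 and Rad21l together made up 4.74% and 13.9% of kleisin transcripts in Ctrl and 9.47% and 13.7% in AZ20, groups that overlapped, and the higher Ctrl value came from the Rec8 reads of replicate 2. All of these are shares of RNA, and the make-up of the protein complex was not measured in these libraries.

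**Figure D4:**
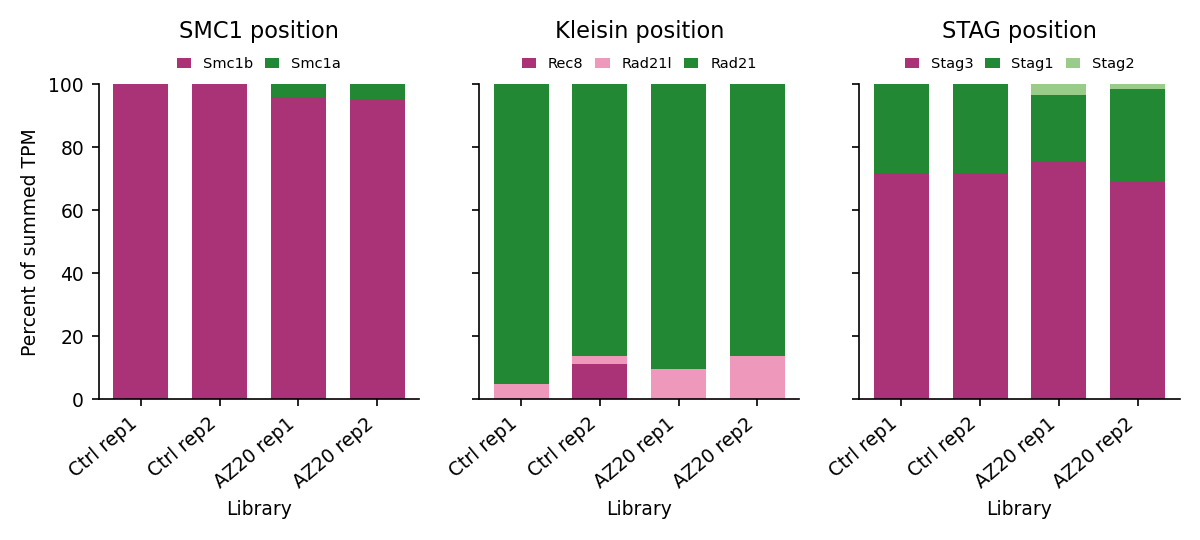
Percent of the summed TPM at the SMC1, kleisin and STAG positions that each gene supplied, with a stacked bar for each library. Meiosis-specific genes (purple and pink) supply at least 95.4% of the SMC1 transcripts and 69.1% to 75.4% of the STAG transcripts, but 4.74% to 13.9% of the kleisin transcripts. Smc1a and Stag2 are visible only in the AZ20 libraries.

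Promoter sequences were at hand from RefSeq for 7 of the 9 members, and Rad21 and Stag2 had no entry. Each window runs from 250 bases before to 50 after the start of the RefSeq entry, on the gene's own strand (GRCm38.p6). These starts differ from the gene coordinates given above for several members. The windows of Stag3 and Stag1 (chr9:100643198-100643497) lie wholly inside those coordinates, so they need not be at the outermost start. The windows of the 4 meiosis-specific genes are shown because their transcripts ranged from the most abundant of the members to levels near the detection limit, and that of Smc1a because it was the member called. They are chr15:85131908-85132207 (minus strand) for Smc1b, chr5:138280259-138280558 (plus) for Stag3, chr14:55617916-55618215 (plus) for Rec8, chr2:151668484-151668783 (minus) for Rad21l and chrX:152016178-152016477 (plus) for Smc1a. Capitals mark the letters TTCCCGC, the core of the sequence that E2F factors bind, or their reverse complement GCGGGAA.
Smc1b: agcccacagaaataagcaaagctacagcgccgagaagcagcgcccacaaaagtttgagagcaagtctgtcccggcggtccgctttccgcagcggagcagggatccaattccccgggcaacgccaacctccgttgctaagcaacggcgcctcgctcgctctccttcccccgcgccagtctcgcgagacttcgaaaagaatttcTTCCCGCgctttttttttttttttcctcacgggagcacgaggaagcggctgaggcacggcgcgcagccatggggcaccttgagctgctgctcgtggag
Stag3: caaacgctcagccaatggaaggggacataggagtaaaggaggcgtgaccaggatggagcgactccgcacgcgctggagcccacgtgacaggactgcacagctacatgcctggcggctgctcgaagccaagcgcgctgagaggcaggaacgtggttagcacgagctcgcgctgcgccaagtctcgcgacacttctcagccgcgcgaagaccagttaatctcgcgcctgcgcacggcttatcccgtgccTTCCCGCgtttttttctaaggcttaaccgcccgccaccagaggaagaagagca
Rec8: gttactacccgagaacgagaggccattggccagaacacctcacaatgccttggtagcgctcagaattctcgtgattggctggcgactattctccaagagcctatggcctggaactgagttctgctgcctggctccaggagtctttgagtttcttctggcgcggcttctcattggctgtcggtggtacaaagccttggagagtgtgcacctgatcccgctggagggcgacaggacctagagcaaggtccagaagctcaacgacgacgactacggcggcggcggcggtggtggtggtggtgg
Rad21l: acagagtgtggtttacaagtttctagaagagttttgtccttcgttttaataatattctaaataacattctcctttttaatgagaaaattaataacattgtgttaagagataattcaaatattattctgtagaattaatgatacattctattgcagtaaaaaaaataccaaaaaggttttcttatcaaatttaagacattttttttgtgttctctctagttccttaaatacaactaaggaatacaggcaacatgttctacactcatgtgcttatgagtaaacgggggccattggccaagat
Smc1a: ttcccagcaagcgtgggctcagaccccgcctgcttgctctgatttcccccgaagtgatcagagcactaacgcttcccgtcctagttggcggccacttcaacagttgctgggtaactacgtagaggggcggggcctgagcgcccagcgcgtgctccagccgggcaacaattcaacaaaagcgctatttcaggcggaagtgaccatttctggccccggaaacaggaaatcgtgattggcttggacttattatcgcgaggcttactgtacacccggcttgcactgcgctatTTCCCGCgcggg

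The motif TTCCCGC, sought on both strands, was in the windows of Smc1b, Smc1a, Stag3 and Stag1, which is 4 of 7, and in 4.66% of the 27025 promoter windows in the reference. It began at position -48 in Smc1b, -3 in Stag3, -16 in Stag1 and 39 in Smc1a. Positions are counted from the start of the RefSeq entry, with the base just before it as -1. The motif was picked after the windows had been read, and the members that hold it include both genes that were abundant in Ctrl and Smc1a, which was not detected there. The CCAAT box (CCAAT or ATTGG) was in 6 of the 7 windows, all but that of Smc3, and in 37.9% of all windows. In Rad21l it lay after the start, among bases that may be coding. CNGTTG or its reverse complement CAACNG, the core bound by MYB factors, was in the windows of Smc1b and Smc1a and in 35.1% of all windows. The E-box CACGTG was in that of Stag3 alone and in 7.24% of all windows, and the cAMP response element TGACGTCA was in 0 of the 7 and in 1.88% of all windows. No motif overlap was removed.

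The window of Rad21l stood apart in base composition. It held 29% G and C with 2 CpG dinucleotides, and only 0.662% of all windows had a lower G and C content. The other windows held 58.3% to 73.7% G and C with 18 to 43 CpG dinucleotides, and that of Rec8, whose transcript was as scarce, held 58.3% with 18. After its start the Rad21l window opens with ATG, the letters of a start codon, so its entry may begin at the coding sequence. The window may then lie inside the gene rather than at its promoter. No reading of base composition against transcript level is made from it.

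The X-linked members were placed among the X-linked genes. Smc1a had a higher level in AZ20 than 58.7% of the 341 X-linked genes tested, whose median was 6.45 TPM, and 119 of them had a larger change on the log2(TPM + 1) scale. Stag2 had a level above only 9.38% of them, and 283 had a larger change. The genes most like Smc1a over the 4 libraries, by root mean square difference of log2(TPM + 1), were Zfp280c (0.0811), Rhox2g (0.0852) and Ercc6l (0.107), all X-linked and all at 0 or 0.0222 TPM in Ctrl. Rhox2g belongs to a cluster of near-identical copies, so its own level is uncertain. For Stag2 they were 9030204H09Rik on chromosome 2 (0.0813), Mir3074-1 on chromosome 13 (0.0853) and the X-linked Rbm10 (0.112).

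**Figure D5:**
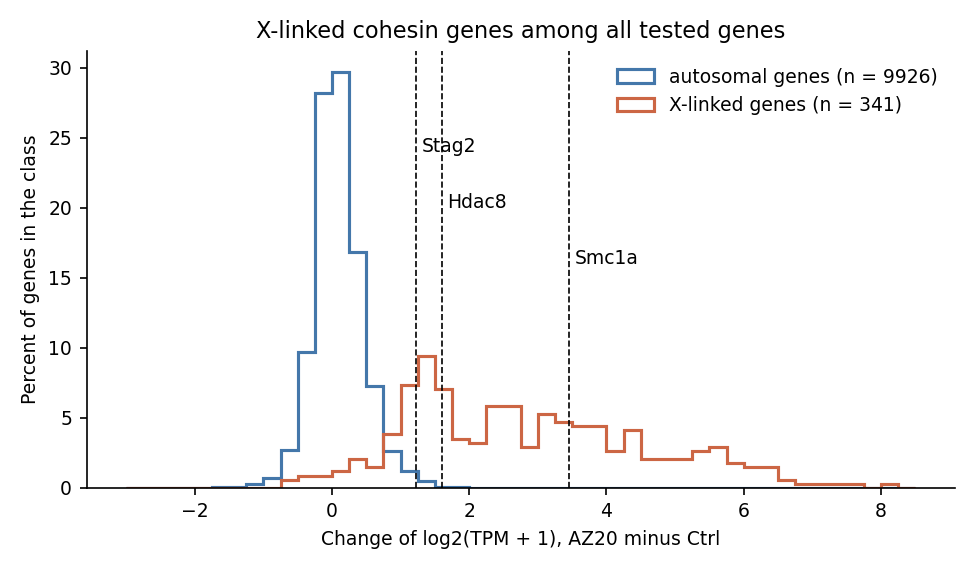
Distribution of the change of log2(TPM + 1), AZ20 minus Ctrl, over 9926 autosomal and 341 X-linked genes tested, as a percent of the genes in each class, with dashed lines at 3 X-linked cohesin genes. Smc1a, at 3.46, lies above the X-linked median of 2.61, and Hdac8, at 1.60, lies below it. Both are between the X-linked quartiles of 1.46 and 4.01, while Stag2, at 1.22, is below the lower quartile.

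The factors that load, acetylate, protect and cleave cohesin were followed as a list of 22 genes, all of which were in the table. Of these 20 were tested and 0 were called in either direction in limma, with 11 positive and 9 negative changes and a median of 0.072, equal to that of all genes tested, of which 6166 changes were positive and 4150 negative. An unadjusted p under 0.05 was found for 3 of the 20, beside the 945 of 10316 over all genes tested. With the replicate number as a block 1 was called, Hdac8, and voom on the recovered reads called 0, or Hdac8 alone with the replicate block. Sgol2b, a shugoshin, and Ctcfl, the germline paralog of CTCF, were under the filter.

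Hdac8, the deacetylase that recycles SMC3 and the only X-linked gene of the list, had the largest change. Neither Ctrl library held a read of it, and the AZ20 libraries had 2.11 and 1.94 TPM, from 53 and 44 reads. The AZ20 mean was at least 12.6-fold above the level that 3 reads per Ctrl library allow. Like Smc1a and Stag2, Hdac8 passed the filter only through the AZ20 libraries, so its groups had to differ. The change of 1.60 ± 0.33 (SE) on the log2(TPM + 1) scale missed the threshold (limma, adjusted p = 0.0724), and with the replicate block the adjusted p in limma was 0.00681.

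Esco2, an acetyltransferase of SMC3, had 9.5 and 19 TPM in Ctrl and 25.2 and 29.8 TPM in AZ20. Its groups did not overlap, and its change of 0.97 ± 0.33 (SE) was not called (limma, adjusted p = 0.395, or 0.0155 with the replicate block, at a change just under 2-fold). Pttg1, which encodes securin, the inhibitor of separase, had 343 and 273 TPM in Ctrl and 461 and 422 TPM in AZ20. Its change of 0.53 ± 0.17 (SE) was not called either (limma, adjusted p = 0.361).

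The lowest changes of the list were those of Dscc1, a subunit of an alternative clamp loader, and Espl1, which encodes separase. Dscc1 had 0.53 and 2.32 TPM in Ctrl and 0.42 and 0.582 TPM in AZ20, with a change of -0.59 ± 0.44 (SE; limma, adjusted p = 0.796). Espl1 had 1.96 and 2.09 TPM in Ctrl and 1.42 and 1.24 TPM in AZ20, with a change of -0.38 ± 0.30 (SE; limma, adjusted p = 0.809). The Dscc1 groups overlapped and the Espl1 groups did not.

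The related condensin and SMC5/6 complexes, with Smchd1, gave a list of 18 genes. All 18 were tested, 0 were called in limma or in voom with and without the replicate block, 1 had an unadjusted p under 0.05 (945 of 10316 over all genes tested), and 11 changes were positive and 7 negative, with a median of 0.023. The highest were Smchd1, an SMC hinge protein (0.67, limma, adjusted p = 0.543), and Ncaph, a condensin kleisin (0.51, limma, adjusted p = 0.655). The lowest were Nsmce4a (-0.51) and Eid3 (-0.42), paralogous kleisins of SMC5/6. The arms of condensin were unequal too: Smc4 was 35.4-fold to 45-fold above Smc2 in the 4 libraries, a range that lies within the 31.2-fold to 81.6-fold excess of Smc1b over Smc3.

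The round spermatid markers, highest in AZ20 replicate 1, were higher in replicate 1 than in replicate 2 of each group. Smc1a, Smc3 and Rad21 were lower in AZ20 replicate 1 than in AZ20 replicate 2, and Stag2 was higher. The part of these cells in the levels of the cohesin genes was not tested.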

How the data were processed

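The deposited table holds TPM for each gene in each of 4 libraries, which the authors computed from read counts. Per the labels, reads of 150 bases were trimmed with Trimmomatic (version 0.39), aligned with STAR (2.5.4b) to GRCm38 (mm10) and counted with featureCounts (2.0.1). Cells were cultured at 34 °C per the labels and at 32 °C per the methods. 92 blank lines were left out, and 137 symbols had no chromosome.

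Each member was the gene with its symbol. Members and lists were chosen with earlier results of these data known. Genes with a mean above 1 TPM in either group were tested. Log2(TPM + 1) was fitted with limma (3.58.1, R 4.3.3) with an intensity trend, a moderated test and Benjamini-Hochberg adjustment over all genes tested. Whole reads were recovered from the TPM steps, using that a gene's length is the same in each library. All 14888 genes above 0 in at least 2 libraries gave whole reads. A common factor cannot be seen in TPM, and 1339 genes, Smc3 among them, were raised by a whole factor to match the annotated length. For 1969 genes above 0 in 1 library, Rec8 among them, the reads and the limits drawn from them are less certain. Intervals and the limit of 3 reads cover counting error only. Sequence shared with other transcripts (at least 95% identity over 100 bases) was found with BLAST (2.17.0). In GENCODE vM21 no exon of another gene lies on a member's exons, except for 28 bases (0.338%) of Stag2. The script was tested on simulated data.

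The labels do not say what a replicate number marks, but each experiment, per the methods, divided 1 mouse's cells between the conditions. Libraries of the same number deviated together from their group means (r = 0.229 over the 10316 genes tested), and the block is given as an alternative. P-values rest on the spread between 2 libraries per group. In limma the variance of each gene was also moderated toward that of the other genes, so it is not the gene's own spread alone. All members were named, and, of each list, called genes, X-linked genes and the 2 highest and 2 lowest changes. The other steps ran under Python 3.11.15 with scipy 1.17.1, numpy 2.4.6 and pandas 2.3.3.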

Additional observations from a re-analysis of the deposited data

How the results depend on the processing

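Smc1a kept its direction in all 14 alternatives and its call in 12, with a change of 3.12 to 9.96 and adjusted p (limma) up to 0.0241 over those that kept all libraries. It was 3.27 to 3.64 with a library left out. Stag2 was called only by voom with the replicate block (6.56) and was untested without AZ20 replicate 1 and under a filter of 5 TPM. Quantile normalization moved the median of all genes from 0.0723 to -0.071 and the change of Stag3 to -0.076. With a library left out, Stag3 ranged from -0.051 to 0.14, Smc1b from -0.20 to 0.051, Stag1 from -0.41 to 0.16, and the log2 ratio of Stag3 to Stag1 from -0.12 to 0.49. Smc3 (0.25 to 1.03) and Rad21 (0.16 to 0.52) stayed positive and uncalled with a library left out, and under quantile normalization fell to 0.39 and 0.094. Beside 235 genes called higher, 5 lower and 15 autosomal, the replicate block gave 424, 23 and 157. Calls lower were 1 with no filter, 1 with voom and 2 with voom and the replicate block, and autosomal calls were 7 with no filter and 36 with voom and the block. Of the regulators 1 (Hdac8) was called with no filter, with no trend, with the block and with voom and the block. With a library left out, 0 to 184 genes were called higher, 0 to 1 lower, 0 to 174 X-linked and 0 to 5 autosomal, with 0 in each class without either AZ20 library. By recovered reads, which are not per length, the meiosis-specific share was 5.38% and 5.71% of kleisins (9.3% and 11.6% by TPM) and 64.2% and 64.7% of STAG transcripts in Ctrl and AZ20. The depth limits Rec8, Rad21l, and Stag2 in Ctrl, which rested on 21 reads or fewer per library. The cause of these changes was not tested.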
